A study of Mus musculus with 29 samples.

Results

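Apolipoproteins are the protein shell of the particles that carry triglyceride and cholesterol between tissues. 10 of their genes were followed here, namely Apoe, Apoc1, Apoc3, Apoc4, Apoa1, Apoa2, Apob, Apoh, Apod and Apol6, out of the 24770 gene symbols of the count table. They were picked out of the table by symbol alone, and each was found once. RNA was measured by RNA-seq in brown adipose tissue (BAT) and in gastrocnemius muscle (SkM) of wild-type male C57BL/6J mice. The control group ate chow freely and stayed sedentary, the CR group received a restricted amount of food, the EX group was trained on a treadmill, and the CREX group (labelled CE in the sample records) received both. Tissues were taken after a fast, about a day after the last bout of running. BAT was represented by 3 control, 4 CR, 4 EX and 4 CREX libraries, and SkM by 4 control, 3 CR, 4 EX and 3 CREX libraries. Nothing in the sources links a BAT library to a SkM library of the same mouse, and p-values measure the spread between these libraries.

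Most apolipoproteins of the blood come from the liver and the intestine. APOB is the structural protein of very low density lipoprotein and its remnants, and APOA1 and APOA2 are the main proteins of high density lipoprotein. APOC3 slows the breakdown of triglyceride by lipoprotein lipase and the uptake of remnants, APOC1 and APOC4 are small exchangeable proteins of the same particles, and APOE is the ligand by which remnants bind their receptors on cells. APOE is made by many other cells too, among them macrophages and adipocytes. APOH is a phospholipid-binding glycoprotein of plasma, APOD is a lipocalin that is transcribed in many tissues outside the liver, and APOL6 belongs to the intracellular L family.

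Several of these genes are neighbours in the genome. In the GENCODE annotation of GRCm38, Apoc4 (chr7:19678083-19681479), Apoc1 (chr7:19689481-19692660) and Apoe (chr7:19696109-19699188) lie on the minus strand of chromosome 7, with 8001 bases between Apoc4 and Apoc1 and 3448 bases between Apoc1 and Apoe. Apoa1 (chr9:46228580-46230466, plus strand) and Apoc3 (chr9:46232933-46235636, minus strand) lie 2466 bases apart on chromosome 9. The other members stand on chromosomes of their own, which are chromosome 1 for Apoa2 (chr1:171225054-171226379), 11 for Apoh (chr11:108343354-108414396), 12 for Apob (chr12:7977648-8016835), 15 for Apol6 (chr15:77044729-77057106) and 16 for Apod (chr16:31296192-31314808). Counts of Apoc4 are uncertain, because a readthrough gene of the same annotation joins it to Apoc2, and Apoc2 had 22 or fewer counts in every library.

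The sequence upstream of the gene is shown for Apoe, the member whose change with CR differed between the tissues in both sedentary and trained mice, and for Apoa1 and Apob, a pair that was high in the same libraries as albumin RNA. Each run covers 200 bases that end 51 bases before the start given by RefSeq (GRCm38.p6), on the strand of the gene. Capitals mark TGTTTGC, a core forkhead motif, and TATAAA, the TATA motif, on either strand. AGGTCA, the half-site of many nuclear receptors, was also searched and is not in these windows. The motifs were chosen with the sequences in view.
Apoe, chr7:19699239-19699438, minus strand: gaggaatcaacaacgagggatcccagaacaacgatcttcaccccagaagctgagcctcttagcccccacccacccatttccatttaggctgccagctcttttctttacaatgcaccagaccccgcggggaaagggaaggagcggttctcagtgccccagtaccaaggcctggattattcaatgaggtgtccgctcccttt
Apoa1, chr9:46228380-46228579, plus strand: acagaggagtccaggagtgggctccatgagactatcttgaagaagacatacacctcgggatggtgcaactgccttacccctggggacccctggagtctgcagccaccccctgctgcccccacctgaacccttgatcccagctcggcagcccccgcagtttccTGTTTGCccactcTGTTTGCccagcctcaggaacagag
Apob, chr12:7977427-7977626, plus strand: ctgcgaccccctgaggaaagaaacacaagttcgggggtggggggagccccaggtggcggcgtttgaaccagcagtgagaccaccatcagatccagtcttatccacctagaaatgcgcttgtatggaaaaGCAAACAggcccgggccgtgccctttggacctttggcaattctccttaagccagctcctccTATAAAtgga
The Apoa1 window held TGTTTGC at 2 places, and the Apob window held it once, as its reverse complement, beside 1 TATAAA. Among the 32851 promoter windows of the same length in the table, TGTTTGC stood in 3.55%, TATAAA in 9.14% and AGGTCA in 11.4%. A match of letters is a description of the sequence and not a site of binding. Windows were at hand for 7 of the 10 members. Apoc1, Apoc3 and Apol6 had none.

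Levels are CPM, the counts of a gene relative to one fixed library total, scaled with TMM factors over all libraries of a tissue. BAT libraries held 21047242 to 24919377 counts and SkM libraries 23050918 to 23425284. A gene with 3 counts stood at 0.119 to 0.143 CPM in BAT and at 0.114 to 0.141 CPM in SkM, a limit that covers counting error only. The markers of the labelled tissues were present, with Ucp1 at a mean of 2835 CPM in BAT and Myh4 at 32080 CPM in SkM. RNA of muscle fibre genes was also present in BAT libraries, where the summed level of 11 markers ran from 2.96 to 635 CPM in control, 18.8 to 1356 CPM in CR, 6.38 to 3751 CPM in EX and 967 to 5922 CPM in CREX. Libraries of both tissues also stood apart in RNA of hepatocyte genes. Albumin (Alb), the main secreted protein of the liver, was at 28.2 to 151.9 CPM in 7 libraries and at 3.21 CPM or less in the other 22. These were SkM CR replicates 1, 2 and 3, SkM CREX replicate 1, BAT CR replicate 3, BAT EX replicate 2 and BAT CREX replicate 4. Results that rest on these libraries are given with and without them below, as far as enough libraries remained. In whole tissue, fewer cells of a type and less RNA per cell cannot be told apart.

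Apoe and Apoc1 were abundant genes of control BAT, and Apoe, Apol6 and Apod were the members with the highest level in control SkM. Between genes, levels were compared per kilobase of the principal protein-coding transcript. In control BAT, Apoe stood at 442 ± 34.1 CPM per kb (SD, n = 3) and Apoc1 at 422 ± 80.6 CPM per kb, a pair that did not differ beyond its spread. Apol6 followed at 16.8 ± 2.41 CPM per kb, Apod at 3.08 ± 0.534, Apoa2 at 2.10 ± 0.389 and Apoc3 at 1.33 ± 0.669 CPM per kb. The ranges of Apoa2 (1.78 to 2.53 CPM per kb) and Apoc3 (0.583 to 1.87) overlapped, and Apoa1, Apoc4, Apoh and Apob had means of 0.413 CPM per kb or less. In control SkM the order began with Apoe at 28.6 ± 2.88 CPM per kb (SD, n = 4), Apol6 at 22.5 ± 2.67 and Apod at 13.6 ± 3.29. The ranges of these 3 did not overlap. All other members had means of 0.642 CPM per kb or less there.

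**Figure D1:**
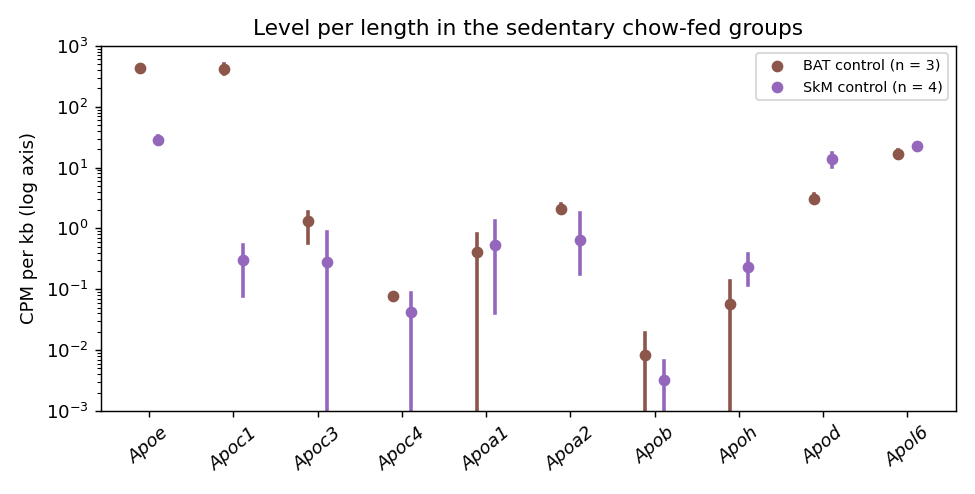
Level of the 10 genes in the control groups, in CPM per kb of transcript on a log axis. Points are group means and vertical lines run from the lowest to the highest library (BAT n = 3, SkM n = 4; a line that reaches 0 is drawn to the lower edge). Apoe and Apoc1 stood at 442 and 422 CPM per kb in BAT, while Apoc1 was at 0.301 CPM per kb in SkM.

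Control BAT and control SkM were then set against each other. Of the 7 members kept by the filter on low counts, 6 were called, 4 higher and 2 lower in BAT. A gene was called here when its fold change exceeded 1.5 and its Benjamini-Hochberg adjusted p (edgeR quasi-likelihood test) was below 0.05, and 60.0% of all genes tested in this comparison were called. Apoc1 was at 180.7, 226 and 266 CPM in the control BAT libraries and at 0.0414 to 0.280 CPM in the control SkM libraries, which held 1 to 6 counts. The fitted difference was 10.17 ± 0.25 on the log2 scale (SE, adjusted p = 3.68e-11). Apoe was at 568, 639.8 and 659.6 CPM in BAT and at 35.9, 39.5, 40.2 and 45.7 CPM in SkM, a log2 difference of 3.68 ± 0.12 (adjusted p = 1.07e-10). Apod went the other way. Its BAT libraries held 5.67 to 7.66 CPM, its SkM libraries 21.3 to 36.1 CPM (log2 difference -2.42 ± 0.20, adjusted p = 1.52e-06). Apol6 was also lower in BAT (-0.68 ± 0.12, adjusted p = 2.72e-04), while Apoc3 (1.97 ± 0.75, adjusted p = 0.0340) and Apoa2 (1.45 ± 0.58, adjusted p = 0.0423) were higher. The call of Apoc3 was lost without any 1 of BAT control replicates 2 and 3 and SkM control replicates 1, 2 and 4 (1.57 to 1.86), and that of Apoa2 without any 1 of BAT control replicates 1, 2 and 3 and SkM control replicates 1, 3 and 4 (1.15 to 1.55). Without BAT control replicate 3, Apol6 was at -0.58, under the fold change of the rule, and 3 members were called. CPM values were scaled within a tissue, and the fit was scaled over the libraries of this comparison.

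Apoe was lower in BAT under food restriction, in sedentary and in trained mice. Apoe stood at 568, 639.8 and 659.6 CPM in the control libraries and at 315, 321, 338 and 358 CPM in the CR libraries. Every CR library was below every control library. The fitted log2 fold change was -0.90 ± 0.07 (SE, adjusted p = 7.55e-05). In trained mice, the EX libraries held 419.5, 446, 489.7 and 563 CPM and the CREX libraries 222, 245, 245 and 306 CPM. These groups did not overlap either, and the log2 fold change was -0.91 ± 0.12 (adjusted p = 0.00284). Averaged over sedentary and trained mice, the effect of CR on Apoe was -0.91 ± 0.07 (adjusted p = 8.07e-07), and the interaction of CR and EX was -0.01 ± 0.15 (adjusted p = 0.992). Neither pair lost its call under any of the alternatives run, which gave -0.96 to -0.85 for CR against control and -1.01 to -0.83 for CREX against EX. Over all 15 BAT libraries, Apoe was highest in the 3 control libraries and lowest in the 4 CREX libraries. Without the libraries with Alb above 30 CPM the values were -0.91 (adjusted p = 5.09e-05) in sedentary and -0.88 (adjusted p = 0.0387) in trained mice.

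Apoc1, the neighbour of Apoe, was lower in the same groups by a smaller amount. Control BAT held 180.7, 226 and 266 CPM and CR BAT held 145, 155, 166 and 175 CPM. The groups did not overlap, and the log2 fold change of -0.48 ± 0.12 had an adjusted p of 0.0234 but stayed under the fold change of the call rule, which it passed without control replicate 1 (-0.62, adjusted p = 0.00443). In trained mice Apoc1 fell from 176, 194, 200.2 and 224 CPM in EX to 109, 111, 125.5 and 137 CPM in CREX, a log2 fold change of -0.72 ± 0.10 (adjusted p = 0.00361) that was called. The average effect of CR was -0.60 ± 0.08 (adjusted p = 7.30e-05), a fold change of 1.52 that is just past the 1.5 of the rule, and 5 single libraries (BAT control replicate 3, CR replicate 3, CREX replicates 2 and 3 and EX replicate 4) each took it below that rule when left out, with values from -0.58 to -0.53, as did the muscle marker covariate. The interaction of CR and EX was -0.23 ± 0.16 (adjusted p = 0.912).

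Apoc3, the inhibitor of lipoprotein lipolysis, rose with CR in sedentary BAT from a low level. Control libraries held 0.306, 0.803 and 0.986 CPM, which were 7, 20 and 24 counts. CR libraries held 1.34, 1.53, 2.003 and 3.29 CPM, which were 31, 36, 42 and 80 counts. No CR library overlapped the controls, and the log2 fold change was 1.53 ± 0.43 (adjusted p = 0.0322). The call was lost without BAT CR replicate 2 (adjusted p = 0.0621), control replicate 1 (1.19, adjusted p = 0.0791) or control replicate 2 (adjusted p = 0.0881), and with the muscle marker genes as a covariate (1.46, adjusted p = 0.0562). It was kept without CR replicate 3, the library of this group with high Alb (1.19, adjusted p = 0.0320). In trained mice, EX libraries held 1.11 to 1.80 CPM and CREX libraries 1.24 to 2.42 CPM, and the log2 fold change of 0.18 ± 0.26 was not called (adjusted p = 0.711). The average effect of CR was called (0.86 ± 0.25, adjusted p = 0.0174) but not without the libraries with Alb above 30 CPM (0.63, adjusted p = 0.0776), and the interaction of -1.35 ± 0.51 did not pass (adjusted p = 0.824).

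**Figure D2:**
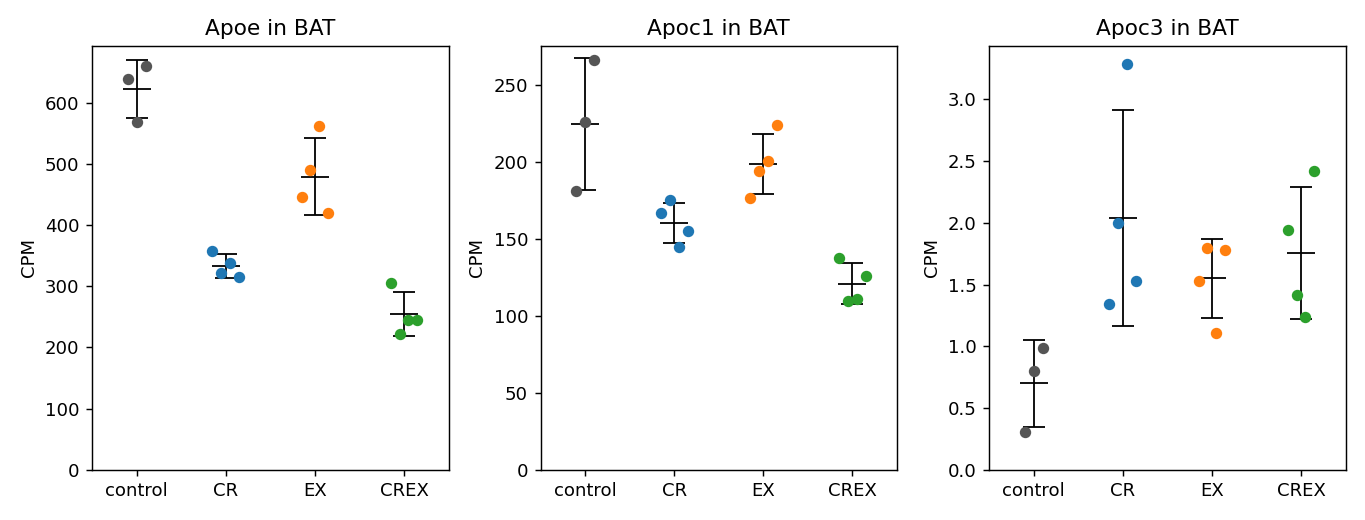
Apoe, Apoc1 and Apoc3 in BAT, in CPM on linear axes that start at 0. Each point is 1 library, the short line is the group mean and the bars are 1 SD (control n = 3, other groups n = 4). Apoe stood at 315 to 358 CPM in CR and 222 to 306 CPM in CREX, below all control and EX libraries.

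Among the members, CR against control in BAT had 7 of the 10 genes past the filter on low counts, of which Apoc3 rose and Apoe fell, where 10.7% of all 13323 genes tested were called. CREX against EX had 6 members past the filter, and Apoe and Apoc1 fell, where 4.48% of 13251 genes were called and 2.63% were called as lower. For the average effect of CR, 9 members were tested and Apoe, Apoc1 and Apoc3 were called, where 11.8% of genes were called. The median log2 fold change of the tested members was 0.62 for CR against control and -0.25 for CREX against EX, beside 0.0045 and -0.0020 over all genes tested. Apod, at 5.67, 5.82 and 7.66 CPM in control and 7.43, 8.20, 8.57 and 15.2 CPM in CR, was not called (0.63 ± 0.26, adjusted p = 0.123). Apol6 was at 29.3 to 39.1 CPM in control and 22.7 to 30.7 CPM in CR (-0.28 ± 0.12, adjusted p = 0.126).

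Apoa1, Apoa2, Apob, Apoh and Apoc4 were low in BAT except in single libraries. Apob had 62 counts in CR replicate 3, 34 in EX replicate 2 and 26 in CREX replicate 4, and 0 to 6 counts in the 12 other libraries. Apoa1 had 57, 97 and 27 counts in the same 3 libraries and 0 to 19 in the others, and Apoh had 29, 22 and 16 counts there and 0 to 4 in the others. Apoa2 had 147, 147 and 74 counts in them and 11 to 30 in the others. Apoc4 had 12, 14 and 9 counts there and 3 or fewer elsewhere. These are the 3 BAT libraries with high Alb, and Apoc4, Apob and Apoh did not pass the filter in any comparison of 2 BAT groups. The tested differences of Apoa1 and Apoa2 were within their spread, for example 0.62 ± 1.63 for Apoa1 (adjusted p = 0.821) and 0.95 ± 0.97 for Apoa2 (adjusted p = 0.534) with CR.

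Training alone moved none of the members past the call rule. In BAT, EX against control called 0 of 7 tested members, where 0% of all genes were called by edgeR (972 genes at an unadjusted p under 0.05, and 36 called by DESeq2). Apoe was at 419.5 to 563 CPM in EX, below the 568 CPM of the lowest control library (-0.37 ± 0.10, adjusted p = 0.445). Apoc3 was at 1.11 CPM or more in EX, above the highest control library (1.14 ± 0.37, adjusted p = 0.556). These were the 2 members with an unadjusted p under 0.05. CREX against CR called 0 of 6 members, where 0.00763% of genes were called, which was 1 gene of 13112 (30 by DESeq2). Apoe (-0.39 ± 0.09, adjusted p = 0.386), Apoc1 (-0.41 ± 0.09, adjusted p = 0.322) and Apol6 (0.32 ± 0.10, adjusted p = 0.516) had groups that did not overlap there and an unadjusted p under 0.05. The interaction of CR and EX in BAT called 0 of 9 members and 0% of genes (800 at an unadjusted p under 0.05, 1 of them a member, and 4 genes called by DESeq2).

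In SkM, CR went with more Apoe RNA, the opposite of BAT. Control libraries held 35.9, 39.5, 40.2 and 45.7 CPM and CR libraries 81.0, 108 and 113.6 CPM, with no overlap. The log2 fold change was 1.33 ± 0.14 (SE, adjusted p = 3.91e-04), and it was 1.23 to 1.47 when any single library was left out. With the hepatocyte marker genes as a covariate, it was 0.81 (adjusted p = 0.0304). All CR libraries were among those with high Alb, so food restriction and hepatocyte RNA cannot be told apart here. In trained mice, Apoe was at 30.1, 37.5, 39.0 and 54.5 CPM in EX and at 39.5, 60.0 and 67.2 CPM in CREX, and the log2 fold change of 0.46 ± 0.24 was not called (adjusted p = 0.219). CREX replicate 3 held 60.0 CPM of Apoe beside 0.283 CPM of Alb and a summed 224.8 CPM of macrophage markers, which came to 76.0 and 81.2 CPM in the other CREX libraries and to 40.9 to 82.0 CPM in EX. The part of these markers was not tested. The average effect of CR on Apoe in SkM was 0.89 ± 0.14 (adjusted p = 3.11e-04), and 0.53 (adjusted p = 0.0420), which is under the 1.5-fold of the rule, with the hepatocyte covariate.

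The direct test of the difference between tissues passed for Apoe. In sedentary mice the CR effect in SkM was higher than that in BAT by 2.23 ± 0.17 on the log2 scale (adjusted p = 1.79e-06), and in trained mice by 1.36 ± 0.27 (adjusted p = 0.0134). Apoc1 differed in sedentary mice (6.11 ± 0.68, adjusted p = 5.06e-04) and was not called in trained mice (2.29 ± 1.15, adjusted p = 0.268). These were the members called, 2 of 10 tested in sedentary mice, where 7.58% of all genes were called, and 1 of 9 in trained mice, where 5.58% of genes were called. With the hepatocyte covariate, Apoe kept its difference at 1.90 (adjusted p = 8.20e-05) in sedentary and 1.31 (adjusted p = 0.0176) in trained mice. Without the libraries with Alb above 30 CPM the Apoe difference was 1.17 (adjusted p = 0.0469) in trained mice, and in sedentary mice too few SkM CR libraries remained. For Apoe and Apoc1 in sedentary SkM, food restriction and hepatocyte RNA cannot be told apart, as described below.

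7 genes that had 30 counts or fewer in each control SkM library were higher in every SkM CR library than in any control library. Apoa2 had 2, 3, 4 and 20 counts in control and 113, 743 and 830 counts in CR, or 0.0926 to 0.932 CPM against 5.02, 29.1 and 31.5 CPM (log2 fold change 6.06 ± 0.86, adjusted p = 0.00460). Apoa1 had 1, 1, 16 and 30 counts in control and 62, 253 and 311 in CR (3.92 ± 0.78, adjusted p = 0.0142). Apoc1 had 1, 3, 4 and 6 counts against 59, 249 and 302 (5.63 ± 0.61, adjusted p = 5.74e-04). Apoc3 had 0, 1, 2 and 10 counts against 30, 172 and 199 (5.12 ± 0.81, adjusted p = 0.00406), and Apoh had 3, 5, 7 and 10 counts against 21, 112 and 129 (3.60 ± 0.56, adjusted p = 0.00298). In all of these, CR replicate 1 was the lowest of the CR libraries.

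Apob and Apoc4 were at or under 3 counts in every control library, so their change is given as a lower bound. Apob had 0, 1, 1 and 2 counts in control SkM and 13, 90 and 163 counts in CR SkM, which is at least 24.7-fold higher against a level of 3 counts per library (adjusted p = 0.00343). Apoc4 had 1 count or none in control and 20, 74 and 89 counts in CR, at least 17.1-fold higher (adjusted p = 5.78e-04). With Apoe, 8 of the 10 members were called as higher in CR SkM, and none as lower, where 9.60% of genes were called and 4.27% were called as higher. All but Apoe, Apod and Apol6 passed the filter on low counts only through the CR libraries, since those 3 alone passed it in the comparison of EX with control, so the count of members is no measure of how common the change is. Apod (0.41 ± 0.19, adjusted p = 0.187) and Apol6 (-0.64 ± 0.23, adjusted p = 0.0958) were not called.

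**Figure D3:**
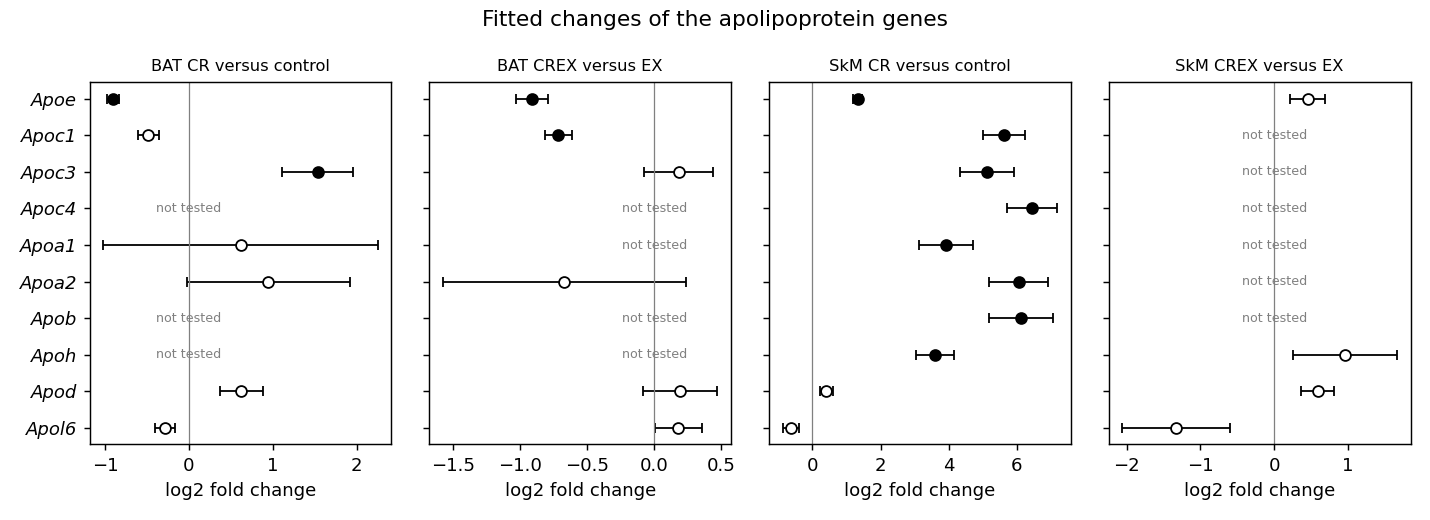
Fitted log2 fold change of each gene in 4 comparisons, with bars of 1 SE. The axes differ in range between panels, filled points were called, and "not tested" marks genes under the filter on low counts. Apoe was at -0.90 and -0.91 in BAT and at 1.33 and 0.46 in SkM.

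The same SkM libraries carried RNA of hepatocyte genes. Alb was at 28.2, 151.9 and 142.9 CPM in CR replicates 1, 2 and 3, at 34.2 CPM in CREX replicate 1 and at 3.21 CPM or less in the other 10 SkM libraries. The summed level of 19 hepatocyte markers was 59.9 to 306.8 CPM in CR and 18.0 to 25.7 CPM in control, where 8 of the 19 had 3 counts or fewer in all libraries. Of the 15 that were tested, 14 were called as higher in CR, where 4.27% of all genes were called as higher. In EX against control, 2 of the 19 passed the filter on low counts. Most of the 15 thus passed it only through the CR libraries, and their count is no measure of how common the change is. Of the summed level of these markers, Vtn, which other cells also transcribe, made up a mean of 15.9 CPM over all SkM libraries. In CREX replicate 1 the 7 genes were high together, with 135 counts of Apoa2, 54 of Apoc1, 45 of Apoa1, 36 of Apoc3, 26 of Apoh, 24 of Apob and 23 of Apoc4. CREX replicates 2 and 3, with Alb at 0.166 and 0.283 CPM, had 10 counts or fewer of each.

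Set against albumin, the 7 genes had the following ratios in the SkM libraries with 100 or more Alb counts. Apoh stood at 2.98 to 3.32 counts per 100 counts of Alb over these 4 libraries, Apoc3 at 4.30 to 5.29, Apoc1 at 6.41 to 9.29 and Apoa2 at 16.1 to 22.1. Apoa1 ran from 5.37 to 9.76, Apob from 2.05 to 4.20 and Apoc4 from 1.97 to 3.15. In the 3 BAT libraries of this kind, Apoh was at 1.95 to 2.59, Apob at 3.18 to 4.97 and Apoa2 at 9.04 to 17.3 per 100 Alb counts. Apoc3 there was at 4.58 to 7.45, but it also had 7 to 49 counts in BAT libraries without much Alb. Apoe and Apoc1 of BAT were at 660.1 to 1250 and at 283 to 495 counts per 100 Alb counts, and both were as high in BAT libraries with little Alb.

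**Figure D4:**
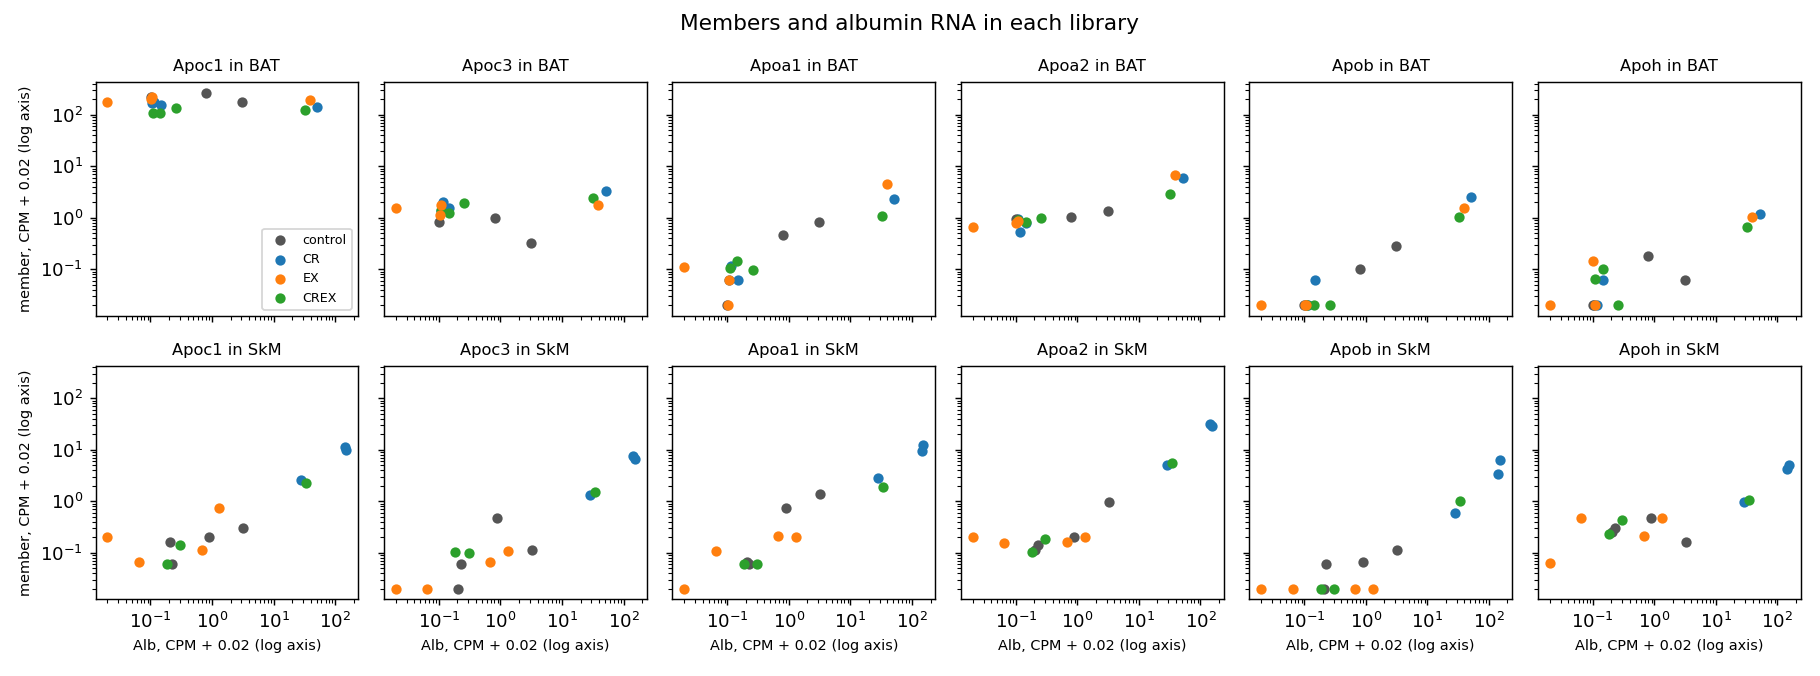
CPM of 6 genes against CPM of Alb, with 0.02 added to both for the log axes, in BAT (top, 15 libraries) and SkM (bottom, 14 libraries), coloured by group. In SkM the 3 CR libraries and 1 CREX library lie at 28.2 to 151.9 CPM of Alb and above all other libraries for each of the 6 genes, and Apoc1 in BAT is at 109 CPM or more whatever the level of Alb.

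With the mean level of the hepatocyte markers as a covariate, the SkM calls of CR against control went from 8 members to 5, of which 4 were the same. Apoc3 (1.90, adjusted p = 0.227), Apoa1 (1.19, adjusted p = 0.589), Apob (2.18, adjusted p = 0.229) and Apoh (0.68, adjusted p = 0.552) were no longer called. Apoe, Apoc1 (2.94, adjusted p = 0.00452), Apoc4 (4.12, adjusted p = 0.0152) and Apoa2 (2.52, adjusted p = 0.0335) kept their calls, and Apol6 gained one (-1.94, adjusted p = 0.00264). With no filter on low counts, Apoa1 lost its call too (3.91, adjusted p = 0.0774). A fit without the libraries with Alb above 30 CPM could not be made, since 1 CR library would remain. All SkM CR libraries have more hepatocyte RNA than all controls, so food restriction and hepatocyte RNA cannot be told apart for these genes in sedentary mice. In BAT, CR replicates 1, 2 and 4 had 0.128 CPM of Alb or less.

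The average effect of CR in SkM called the same 8 members, all higher, where 14.1% of genes were called and 5.99% were called as higher. It rested on the libraries above: without CREX replicate 1, 4 members were called, which were Apoe (0.81), Apoc4 (4.21), Apoh (1.85) and, as lower, Apol6 (-1.73, adjusted p = 4.29e-06), and Apoc1 (2.001, adjusted p = 0.163), Apoc3 (3.13, adjusted p = 0.0638), Apoa1 (1.27, adjusted p = 0.610), Apoa2 (2.84, adjusted p = 0.127) and Apob (3.06, adjusted p = 0.9999) were not. With the hepatocyte covariate, 3 members were called for the average. Apoc4 was the only 1 of the 8 among them (3.39, adjusted p = 0.00841), beside Apod (0.87, adjusted p = 0.0105) and, as lower, Apol6 (-2.54, adjusted p = 0.00107). CREX against EX tested 4 members and called none by edgeR, where 8.87% of genes were called. Apod was the 1 member with an unadjusted p under 0.05, and DESeq2 called Apoc3 (4.02, adjusted p = 0.0318). EX against control tested Apoe, Apod and Apol6 and called none, where 0.0775% of genes were called, with log2 fold changes of 0.0047, -0.06 and -0.0059 and no member at an unadjusted p under 0.05. CREX against CR called 0 of 10 members and 0% of genes by edgeR (477 genes at an unadjusted p under 0.05, 7 of them members, and 36 genes called by DESeq2). Without CREX replicate 1, 99 genes were called, 1 of them a member, Apoa1 (-7.52, adjusted p = 0.0427). 9 of the 10 members were lower in CREX than in CR there, with Apoe at -0.87 ± 0.23 (adjusted p = 0.999), and DESeq2 called 1 member, Apoh (-2.62, adjusted p = 0.0415). The interaction in SkM called 0 of 10 members and 0% of genes (669 at an unadjusted p under 0.05, 3 of them members, and 1 gene called by DESeq2). Without CREX replicate 1 it called 182 genes, among them Apol6 (-2.16, adjusted p = 0.00441) and Apoc1 (-7.22, adjusted p = 0.0343).

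Apod, the lipocalin, had higher group means in SkM under food restriction and was not called in any comparison between SkM groups. Control libraries held 21.3, 23.9, 31.5 and 36.1 CPM, CR libraries 31.8, 34.2 and 45.6, EX libraries 20.2, 22.4, 26.2 and 38.8, and CREX libraries 32.5, 44.3 and 45.9 CPM. The restricted and unrestricted libraries overlapped in both pairs. CREX against EX gave 0.59 ± 0.22 (adjusted p = 0.110), and the average effect of CR gave 0.50 ± 0.16 with an adjusted p of 0.0280 and a fold change of 1.42, under the rule. The average was called with the hepatocyte covariate (0.87, adjusted p = 0.0105) and without EX replicate 1 (0.62, adjusted p = 0.00511), and CREX against EX was called without EX replicate 1 (0.82, adjusted p = 0.0306). Apod was at 31.8 to 45.6 CPM in the SkM libraries with 100 or more Alb counts and at 20.2 to 45.9 CPM in the others.

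Apol6 split the restricted SkM libraries. It was at 39.2, 43.2, 49.8 and 50.5 CPM in control and 43.3, 43.6, 46.2 and 48.4 CPM in EX. CR libraries held 17.2, 29.6 and 40.5 CPM, and CREX libraries 5.88, 7.03 and 40.8 CPM. All CREX libraries were below all EX libraries, replicates 2 and 3 by far and replicate 1 by little, and the log2 fold change of -1.33 ± 0.73 was not called (adjusted p = 0.262). It was called without CREX replicate 1, the CREX library with high Alb (-2.84, adjusted p = 4.60e-07), and with the hepatocyte covariate (-2.67, adjusted p = 2.08e-06). The difference between tissues in trained mice was -1.52 ± 0.72 (adjusted p = 0.244), and -3.02 without CREX replicate 1 (adjusted p = 5.51e-06). For CR against control, it was called without CR replicate 3 (-0.96, adjusted p = 0.0198). The CREX libraries also differed in muscle genes. Myh7, the slow myosin heavy chain, was at 6.30 and 0.121 CPM in CREX replicates 2 and 3 and at 108 CPM in replicate 1, beside 14.4 to 677 CPM in EX, 411 to 739.5 CPM in CR and 181 to 791.5 CPM in control. Lpl was at 97.8, 99.5 and 472 CPM in CREX and at 525.6 to 697.6 CPM in EX. The part of either in the levels of Apol6 was not tested. BAT held 22.7 to 43.5 CPM of Apol6, with no call between BAT groups.

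**Figure D5:**
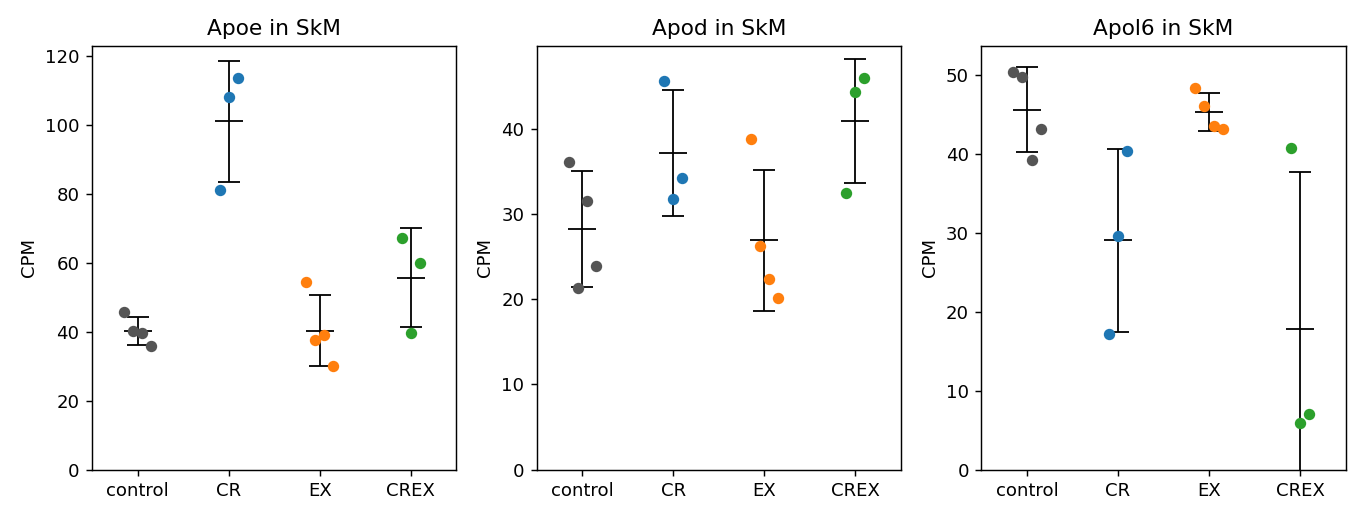
Apoe, Apod and Apol6 in SkM, in CPM on linear axes that start at 0. Each point is 1 library, the short line is the group mean and the bars are 1 SD (control and EX n = 4, CR and CREX n = 3). Apol6 was at 5.88 and 7.03 CPM in CREX replicates 2 and 3 and at 40.8 CPM in CREX replicate 1. The lower error bar of Apol6 in CREX is cut at 0.

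The genes whose log2 CPM was most like that of each called member were found by Pearson's r over the libraries of a tissue, which share groups and depth, and are given as a description. In BAT (15 libraries) Apoe was most like Col4a2, a basement membrane collagen (r = 0.951), Palm2 (0.936) and Actb (0.929), and Apoc1 like Slc35f5 (0.934), 4921507P07Rik (0.918) and Csrp2 (0.885). Apoc3 in BAT was most like Gys2 (0.841), the liver form of glycogen synthase, Elovl3 (0.803), a fatty acid elongase of brown fat, and Gipc1 (0.796). Alb came first for Apob (0.980), Apoa2 (0.958), Apoa1 (0.946) and Apoh (0.946) of BAT. In SkM (14 libraries), Apoe was most like Rbp4 (0.972), the retinol carrier, Gnmt (0.942) and Gsta3 (0.931). The other called members had liver genes as their first in SkM, namely Ttr for Apoa2 (0.997) and Apoc4 (0.991) and Cyp3a11 for Apob (0.997). Gc came first for Apoc3 (0.991), Serpina1d for Apoc1 (0.990), Serpina3k for Apoa1 (0.986) and Hamp for Apoh (0.973). Apoe was not set apart from these members in SkM, with an r of 0.848 (Apoa1) to 0.934 (Apoc1) with them.

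Other genes of lipoprotein handling were taken from lists written by hand with earlier results known. Over all genes tested in BAT, 10.7% were called for CR against control and 4.48% for CREX against EX. In SkM these shares were 9.60% and 8.87%. The counts called in each list were not tested against them. Of 12 lipoprotein receptors tested in BAT, 2 fell in CR against control. Apobr, the receptor of macrophages for apolipoprotein B48, fell by 1.52 ± 0.15 on the log2 scale (adjusted p = 1.99e-04), and Scarb1, the receptor of high density lipoprotein, fell by 0.71 ± 0.08 (adjusted p = 4.78e-04). Sorl1, a sorting receptor, rose by 0.71 ± 0.19 (adjusted p = 0.0417), a call that was lost in 12 of 17 alternatives. CREX against EX in BAT called 1 of 12, with Apobr at -1.26 ± 0.17 (adjusted p = 0.00360). The median log2 fold change of the receptors was -0.29 with CR and -0.20 in the trained pair, beside 0.0045 and -0.0020 over all genes.

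Mttp, the transfer protein that loads lipid onto APOB, was the 1 gene called among 10 of assembly and cholesterol efflux in BAT in both pairs. It rose by 0.66 ± 0.18 with CR (adjusted p = 0.0264), a call that was lost without CR replicate 3, CR replicate 4, control replicate 1 or control replicate 2 (lowest value 0.51), and by 1.23 ± 0.11 in CREX against EX (adjusted p = 5.30e-04). None of 10 and 9 tested lipases and lipase regulators was called in these pairs. Among 12 regulators of apolipoprotein transcription, 1 was called with CR and none in the trained pair. It was Mylip, a ubiquitin ligase (0.99 ± 0.17, adjusted p = 0.00627), which is also a target of LXR, the sterol sensor that acts on Apoe. Of 9 LXR target genes tested, Mylip rose and Arl4c fell with CR (-1.44 ± 0.25, adjusted p = 0.00356), and Arl4c fell in the trained pair (-1.44 ± 0.35, adjusted p = 0.0340, lost in 9 of 17 alternatives).

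In SkM, 3 of the 10 genes of assembly and cholesterol efflux rose in both pairs, and none fell. Mttp rose by 1.30 ± 0.19 with CR (adjusted p = 0.00224) and by 0.996 ± 0.22 in the trained pair (adjusted p = 0.0202, lost in 6 of 16 alternatives). Abca1, the cholesterol exporter, rose by 1.09 ± 0.17 (adjusted p = 0.00258, lost with the hepatocyte covariate at 0.51) and by 1.47 ± 0.28 (adjusted p = 0.0184, lost without EX replicate 1 or 2). Sort1, a sorting receptor of lipase and lipoprotein, rose by 0.71 ± 0.17 (adjusted p = 0.0206, lost in 4 of 15 alternatives) and by 1.13 ± 0.18 (adjusted p = 0.00877). The median of this list was 0.57 and 0.45, beside 0.0050 and 0.0026 over all genes. Of 7 lipases and regulators, Pltp (-0.88 ± 0.15, adjusted p = 0.00434) and Lpl (-0.78 ± 0.17, adjusted p = 0.0153, lost without control replicate 2 and in 1 fit over all groups) fell with CR, and none was called in the trained pair. Vldlr was the 1 receptor of 13 called with CR (-0.70 ± 0.15, adjusted p = 0.0147, lost without CR replicate 2 or control replicate 2). Of 3 other apolipoprotein genes tested, Apoa5, a liver gene, rose by 5.92 ± 0.88 (adjusted p = 0.00239) in the same libraries as Alb and Apol10b fell by 0.94 ± 0.28 (adjusted p = 0.0474, lost in 6 of 15 alternatives).

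Markers of other cell types moved with some of these groups, and their part in the changes of Apoe and Apoc1 was not tested. Over all genes, 914 of 13323 were called as lower for CR against control in BAT. For CREX against EX in BAT, 348 of 13251 were called as lower and 246 as higher. In SkM, 701 of 13173 were called as lower and 563 as higher for CR against control. The counts of markers called were not tested against these shares. In BAT the summed level of 14 macrophage markers was 65.3 to 90.3 CPM in CR and 122 to 129 CPM in control, with Lyz2 the highest, and 2 of 14 were called as lower. Trained mice had 68.9 to 123.8 CPM in CREX and 108.7 to 166 CPM in EX, with 1 of 14 called as higher in CREX. The summed level of 9 fibroblast markers was 184.7 to 230.3 CPM in CR BAT and 321 to 398.5 CPM in control, with 5 of 9 called as lower, and 216.6 to 241 CPM in CREX against 351.5 to 1440 CPM in EX, with 1 of 9 called as lower. That of 7 brown adipocyte markers was 3543 to 4366 CPM in CR and 5545 to 6622 CPM in control, with 2 of 7 called as lower in this pair and in CREX against EX, while that of 10 adipocyte markers was 14580 to 15580 CPM and 13460 to 14620 CPM. With the muscle marker covariate, Apoe was at -0.89 (adjusted p = 1.20e-04) and at -0.95 (adjusted p = 0.00339) in the 2 pairs. In SkM the adipocyte markers summed to 1087 to 1434 CPM in CR and 819 to 956 CPM in control, with 1 of 8 tested called as higher, and the macrophage markers to 64.2 to 100.7 CPM and 50.7 to 103 CPM. Of the adipocyte sum, Pnpla2 made up a mean of 400 CPM over all SkM libraries, Plin4 368.7 CPM and Fabp4 156.8 CPM. Which cells of SkM held this RNA was not tested. Fibroblast markers summed to 259 to 333.5 CPM in CR SkM and 379 to 497.7 CPM in control SkM, with 4 of 9 called as lower. The 8 Schwann cell markers ran from 29.9 to 41.8 CPM in CR BAT and from 40.5 to 48.1 CPM in control BAT, with none called in either tissue.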

How the data were processed

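RNA of 29 libraries was sequenced on a BGIseq500 as paired-end reads. The authors aligned reads to mm10 with STAR 2.7.10a and deposited 1 table of expected counts per gene symbol from RSEM (1.2.28 in the submitters' processing notes, which also list DESeq2 1.3.40). The annotation is not given in the sources used here. Of the values, 6.11% were not whole, and all were rounded. 27 symbols had been turned into dates.

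Groups came from the sample records. The 15 comparisons were fitted with edgeR 4.0.16 (robust quasi-likelihood test, TMM, filterByExpr) in R 4.3.3 over all genes, and p-values were adjusted by Benjamini-Hochberg over all genes tested. A gene was called when its fold change exceeded 1.5 and its adjusted p was below 0.05, and for interactions and tissue differences at the adjusted p alone. The SE is the absolute log2 fold change divided by the square root of F. Each pair was fitted on its own 2 groups, while interactions and averages used all groups of a tissue. The members and lists were chosen with earlier results of these data known. All 10 members were described in every comparison, beside up to 4 called genes per list with the smallest adjusted p and the 3 genes most like each called member (log2 CPM with 0.5 added, mean of 1 CPM or more). Transcript lengths and positions came from GENCODE (GRCm38), sequences from RefSeq. Results of some list genes are not reported here.

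Alternatives were DESeq2 1.42.0, RLE size factors, no filter, a minimum of 10 counts in every library, the replicate block, 1 fit over all groups, no fold change minimum, the muscle marker covariate and each library left out. A hepatocyte marker covariate and a fit without libraries with Alb above 30 CPM were added after seeing the data. The counts test was tried on simulated data for CR against control in BAT (13128 genes), where 75.5% of genes changed 2-fold and 96.9% of those changed 4-fold were called. Depth was 21047242 to 24919377 counts a library.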

Additional observations from a re-analysis of the deposited data

Results flagged for a closer look

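In groups of 4 libraries, 15 of 46 sets of values had a library far from the rest by Dixon's test. For independent sets with a normal spread, chance alone would flag about 1 group in 20. That rate does not apply here, since many sets held few counts and the sets share libraries. Of the 15 flagged sets, 12 were from the same 3 BAT libraries, those with high Alb. BAT CR replicate 3 stood apart with 2.34 CPM of Apoa1, 6.036 CPM of Apoa2, 2.546 CPM of Apob and 1.191 CPM of Apoh. BAT EX replicate 2 stood apart with 4.465 CPM of Apoa1, 6.767 CPM of Apoa2, 1.565 CPM of Apob and 1.013 CPM of Apoh. BAT CREX replicate 4 stood apart with 1.071 CPM of Apoa1, 2.936 CPM of Apoa2, 1.032 CPM of Apob and 0.6348 CPM of Apoh. Alb was at 51.2, 39.2 and 32.5 CPM in these libraries.

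The other 3 were Apoa2 in SkM control replicate 2 (0.9316 CPM, the control SkM library with the highest Alb at 3.21 CPM), Apod in BAT CR replicate 2 (15.21 CPM) and Apoc4 in SkM EX replicate 4 (0.04691 CPM, which is 1 count where the other EX libraries had none).

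The effect of CR differed between tissues by the test of the difference itself. SkM minus BAT was 2.225 on the log2 scale for Apoe and 6.112 for Apoc1 in sedentary mice, and 1.362 for Apoe in trained mice. All SkM CR libraries had more hepatocyte RNA than all controls, so food restriction and hepatocyte RNA cannot be told apart in the sedentary values.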

How the results depend on the processing

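No called member changed sign under any alternative. Over the counts of called members and the called members themselves, 247 and 511 values stayed on their side, while 28 counts moved and 44 calls were lost. Unless stated, the cause of a change was not tested.

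With 10 counts in every library, fewer members could be tested, and 1 was called for CR in BAT (2 before), 1 for CR in SkM (8), 1 for the average in SkM (8), 1 for the tissue difference in sedentary mice (2) and 3 for control BAT against control SkM (6). The muscle marker covariate gave 1 for CR in BAT. With the hepatocyte marker covariate, 5 members were called for CR in SkM (Apoe, Apoc1, Apoc4 and Apoa2 of the 8, and Apol6) and 3 for the average in SkM (Apoc4 of the 8, Apod and Apol6), and it gave 1 for CREX against EX in SkM (0 before) and 2 for the tissue difference in trained mice (1), the same as without the libraries with Alb above 30 CPM (1 and 2). DESeq2 called 1 for CREX against EX in SkM, 1 for CREX against CR in SkM, 5 and 2 for the tissue difference in sedentary and trained mice. The single fit over all groups called 1 for CREX against EX in SkM.

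Leaving out 1 library gave 1 to 2 members for CR in BAT (1 without CR replicate 2 or control replicate 2), 0 to 1 for CREX against EX in SkM (1 without CREX replicate 1 or EX replicate 1) and for CREX against CR in SkM (1 without CREX replicate 1), 0 to 2 for the interaction in SkM (2 without CREX replicate 1), 4 to 9 for the average in SkM (4 without CREX replicate 1), 2 to 5 and 1 to 2 for the tissue difference in sedentary (5 without BAT CR replicate 3, 4 without SkM CR replicate 1) and trained mice (2 without SkM CREX replicate 1), and 3 to 5 for the control tissues (3 without BAT control replicate 3).

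The count of all genes called also moved. CREX against EX in SkM called 1163 genes, 2570 without CREX replicate 1 and 343 without CREX replicate 2. CREX against EX in BAT called 594, and 190 without the libraries with Alb above 30 CPM. The tissue difference in trained mice called 804, and 2237 or 333 without SkM CREX replicate 1 or 2. Without CREX replicate 1, the interaction and CREX against CR in SkM called 182 and 99 genes (0 before). EX against control in SkM called 10, and 49 by DESeq2. Without a fold change minimum, CR against control called 2778 genes in BAT (1430 with it).

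Replicate numbers were not used to pair the libraries in the main fits. Of 30 same-numbered pairs, 9 were correlated above 0.1 (range -0.42 to 0.515), and no comparison had all its pairs above it. Pairs with unlike numbers were not compared, so these values cannot decide whether the numbers pair the libraries. With the replicate block, Apoa1 lost its call in the SkM average (2.92, adjusted p = 0.0549), Apoa2 lost its call between control tissues (1.26, adjusted p = 0.115), Apoc3 gained one in the sedentary tissue difference (3.18, adjusted p = 0.0172), and all genes called for CR in BAT went from 1430 to 929.

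A fit without the libraries with Alb above 30 CPM was not run for CR against control, CREX against CR, the interaction and the average in SkM or for the sedentary tissue difference, where under 2 libraries of a group remained, nor for EX against control in SkM and the control tissues, where no library was above it. Counts under about 10 in control SkM limit what can be said of Apoc4, Apob, Apoc3 and Apoc1 there.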

Other observations

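Averaged over sedentary and trained mice, regulators of apolipoprotein transcription included genes that were lower with CR in BAT. Cebpa, a transcription factor of adipocytes, was at -0.79 ± 0.18 (log2, SE, adjusted p = 0.00610, edgeR) and Ppara, the receptor that drives fatty acid oxidation genes, at -0.78 ± 0.21 (adjusted p = 0.0122). Mylip was higher (0.81 ± 0.14, adjusted p = 9.88e-04). Among receptors, Sdc1, a heparan sulfate proteoglycan, was at -0.83 ± 0.21 (adjusted p = 0.00761).

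In SkM the same average was 1.46 ± 0.39 for Angptl4, an inhibitor of lipoprotein lipase (adjusted p = 0.0130), and -1.14 ± 0.32 for Lpl, the lipase itself (adjusted p = 0.0172, lost without CR replicate 1 and with no filter on low counts). Cebpb was at 0.91 ± 0.23 (adjusted p = 0.00886).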
